A study of Mus musculus with 6 samples.

Results

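The short RNAs of the mouse prefrontal cortex described here are small nuclear RNAs (snRNAs), small nucleolar RNAs (snoRNAs), small Cajal body RNAs (scaRNAs), microRNA genes (miRNA) and the annotation class misc_RNA, which holds 7SK, 7SL, Y and vault RNAs and their relatives. They were chosen by annotation alone, as the rows of a table of linear transcripts that matched an annotated transcript (class code =) and carried 1 of these 5 transcript types. This gave 5598 of 175010 transcripts: 2128 miRNA, 1483 snoRNA, 1378 snRNA, 559 misc_RNA and 50 scaRNA. All 5598 had a single exon, with lengths of 39 to 466 bases and a median of 107.

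The study compared male C57BL/6 mice given polystyrene nanoparticles (PS NPs) by daily oral gavage at 50 mg/kg body weight (PS_high, 3 samples) with male C57BL/6 mice given water (control, 0 mg/kg, 3 samples). Dosing began at 5 weeks of age and lasted 6 months, and the mice were 30 weeks old at sampling. Neither group carries a genetic change in the labels. The libraries were built from ribosome-depleted, fragmented total RNA with a stranded kit, which is not a small RNA protocol. The labels do not say whether a sample is 1 animal or a pool, so p-values measure the spread between these samples, which may be technical.

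Spliceosomal snRNAs pair with introns as parts of RNA-protein particles, with U1 at the 5′ splice site and U2 at the branch point, and U11 and U12 serve a rare class of introns. snoRNAs guide chemical changes of ribosomal RNA, the C/D box type for ribose methylation and the H/ACA box type for pseudouridine, and scaRNAs do the same for snRNAs. In mammals most snoRNAs and scaRNAs are cut out of introns of host genes. 7SK RNA holds the elongation factor P-TEFb in an inactive particle, and 7SL RNA is the scaffold of the signal recognition particle, which brings nascent secreted proteins to the endoplasmic reticulum. MicroRNAs are cut from hairpins and bind messenger RNAs mainly through their seed, bases 2 to 8 of the mature strand. The table measures reads over the annotated hairpin gene, which include reads of its primary transcript or host.

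Sequences from RefSeq (GRCm38.p6) are shown for microRNA genes at the high and the low end of the counts, with the seed in capitals. Of the 2128 miRNA members, 945 were found there by symbol, and 942 of these had the same start and end as in the table. The first set holds microRNA genes with some of the highest counts in these libraries. Mir341 and Mir1188 lie on the plus strand at chr12:109611500-109611595 and chr12:109611822-109611941, inside the host gene Rian. Mir8114 lies at chr1:153899926-153900036 and overlaps the start of Glul, the glutamine synthetase gene.
miR-341-5p: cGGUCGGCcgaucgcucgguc
miR-341-3p: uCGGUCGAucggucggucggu
miR-1188-5p: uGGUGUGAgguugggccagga
miR-1188-3p: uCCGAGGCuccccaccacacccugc
miR-8114: uCACCCAUcuccucuccgccu

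The second set holds microRNAs known for their roles in neurons, whose genes had almost no counts here. miR-132-3p and miR-212-3p share 1 seed, and the genes Mir9-1, Mir9-2 and Mir9-3 give 1 mature miR-9-5p.
miR-9-5p: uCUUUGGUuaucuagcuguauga
miR-132-3p: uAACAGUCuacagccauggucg
miR-212-3p: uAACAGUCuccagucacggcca
miR-128-3p: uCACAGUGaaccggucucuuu
miR-137-3p: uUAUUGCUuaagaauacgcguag

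The hairpins of Mir341 and Mir1188 are shown whole because the counted reads come from fragments of such a region, not from mature strands. The mature strands are in capitals.
Mir341 hairpin: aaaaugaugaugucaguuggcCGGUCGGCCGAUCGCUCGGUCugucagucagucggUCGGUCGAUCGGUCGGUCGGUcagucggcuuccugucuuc
Mir1188 hairpin: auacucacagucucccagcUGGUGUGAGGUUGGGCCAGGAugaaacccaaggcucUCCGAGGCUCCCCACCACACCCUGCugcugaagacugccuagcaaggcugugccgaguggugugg

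Library totals were 53344395 to 66004386 estimated counts, and 3 counts equal 0.0455 to 0.0562 counts per 1000000 library counts (CPM). Markers of cortical excitatory neurons were present in every library (summed FPKM of 5 genes 244 to 321 in control and 277 to 316 in PS_high). Choroid plexus markers (5 genes) varied far more, from 5.65 to 237 in control and from 10.1 to 467 in PS_high, with the low values in control 1 and PS_high 1, and striatal markers (4 genes) ran from 16.3 to 39.3 and from 10.2 to 37.6. Olfactory bulb markers stayed at or under 0.415, with 1 of 3 at 0 in all libraries. Blood genes (4) ran from 126 to 319 in control and from 72.5 to 206 in PS_high. In bulk tissue, fewer cells of a type and less RNA per cell cannot be told apart.

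Short RNAs held 3.00%, 2.81% and 3.61% of the library counts in control 1, 2 and 3 and 3.07%, 3.78% and 3.74% in PS_high 1, 2 and 3. The groups overlapped, with means of 3.14% ± 0.42 and 3.53% ± 0.40 (SD, n = 3; exact permutation p = 0.2). Because the transcripts are short, the same counts made up 37.1% ± 4.6 of all summed FPKM in control and 39.6% ± 2.0 in PS_high, where FPKM is the count scaled by transcript length and library total. snRNAs were the largest class, with 76.9% of the short RNA counts, followed by misc_RNA with 19.1%. snoRNA (1.77%), miRNA (1.64%) and scaRNA (0.523%) made up the rest.

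snRNAs took 2.24%, 2.10% and 2.72% of library counts in control and 2.45%, 2.98% and 2.93% in PS_high, so 1 PS_high library lay within the control range. The misc_RNA share was 0.665%, 0.557% and 0.746% in control against 0.547%, 0.665% and 0.635%, which also overlapped. The snoRNA share did not overlap between the groups, with 0.0628%, 0.0649% and 0.0670% in control against 0.050%, 0.0537% and 0.0534% in PS_high (ratio of means 0.807; exact permutation p = 0.1, the smallest that 3 against 3 allows; adjusted p = 0.40 over 6 shares). For PS_high 2 and 3 that separation rests on a single transcript, Scarna10, while PS_high 1 was below every control library even without Scarna10. Without it the snoRNA share was 0.0442%, 0.0477% and 0.0473% in control against 0.0339%, 0.0521% and 0.0522% in PS_high, which overlapped. The scaRNA share was 0.0182%, 0.0176% and 0.0183% in control against 0.0119%, 0.0191% and 0.0196% in PS_high, where PS_high 1 was low and the other two were above control.

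**Figure D1:**
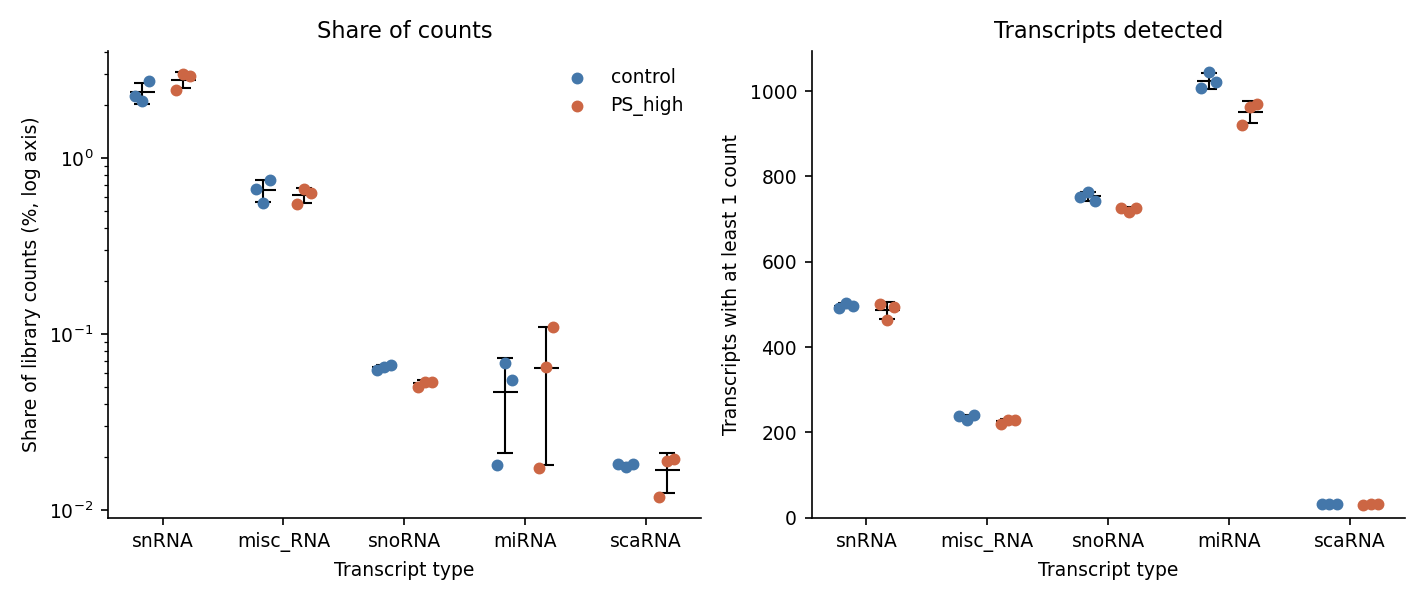
Left, share of library counts (percent, log axis) by transcript type; right, number of transcripts of the type with at least 1 count. Each point is a library (3 control, blue; 3 PS_high, orange), bars are the mean and SD. snRNAs lie at 2.10% to 2.98% in all 6 libraries, and the miRNA share ranges from 0.0174% to 0.109%.

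Of the 5598 members, 3350 had a count in at least 1 library, 1701 in all 6, and 2248 had none. In each library 2400 to 2573 members had at least 1 count. Fewer were counted in PS_high (2400, 2405 and 2452) than in control (2522, 2573 and 2534), and the groups did not overlap (exact permutation p = 0.1, the smallest possible; adjusted p = 0.20 over 6 counts). Over all 175010 transcripts, 99795, 101730 and 101648 had a count in control against 96880, 99245 and 100321 in PS_high. These were also mostly lower in PS_high but overlapped. The miRNA members gave the widest difference (1007, 1044 and 1021 in control against 921, 962 and 970 in PS_high), and snoRNAs were at 753, 764 and 743 against 726, 717 and 727. The deposited counts are rounded up, so a count of 1 can be any coverage above 0: 242 to 281 of the 512 to 549 members with a count of 1 in a library were under 0.5 before rounding. With at least 1 count before rounding, 1982, 2064 and 1998 members were detected in control and 1883, 1858 and 1903 in PS_high. After thinning the counts to the smallest library total, the mean difference of -124 members fell to -84.

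Counts were concentrated in a few members: 92 had a mean of at least 100 counts and 44 of at least 1000, and the 15 most counted held 85.0% of the short RNA counts. The counts lay mostly in the longer members, through a few copies. The 299 members of 151 to 200 bases held 75.6% of the counts and the 422 over 200 bases held 20.2%, while the 800 members of up to 75 bases held 0.138%. The median member had a mean of 1, 1.17, 0.33, 0.83 and 0.83 counts at up to 75, 76 to 100, 101 to 150, 151 to 200 and over 200 bases, so the typical level did not rise with length. A mean of at least 10 counts was reached by 8.88%, 16.4%, 13.3%, 27.1% and 25.8% of the members in the same order. The part of the fragmentation and size selection of the libraries in this was not tested.

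**Figure D2:**
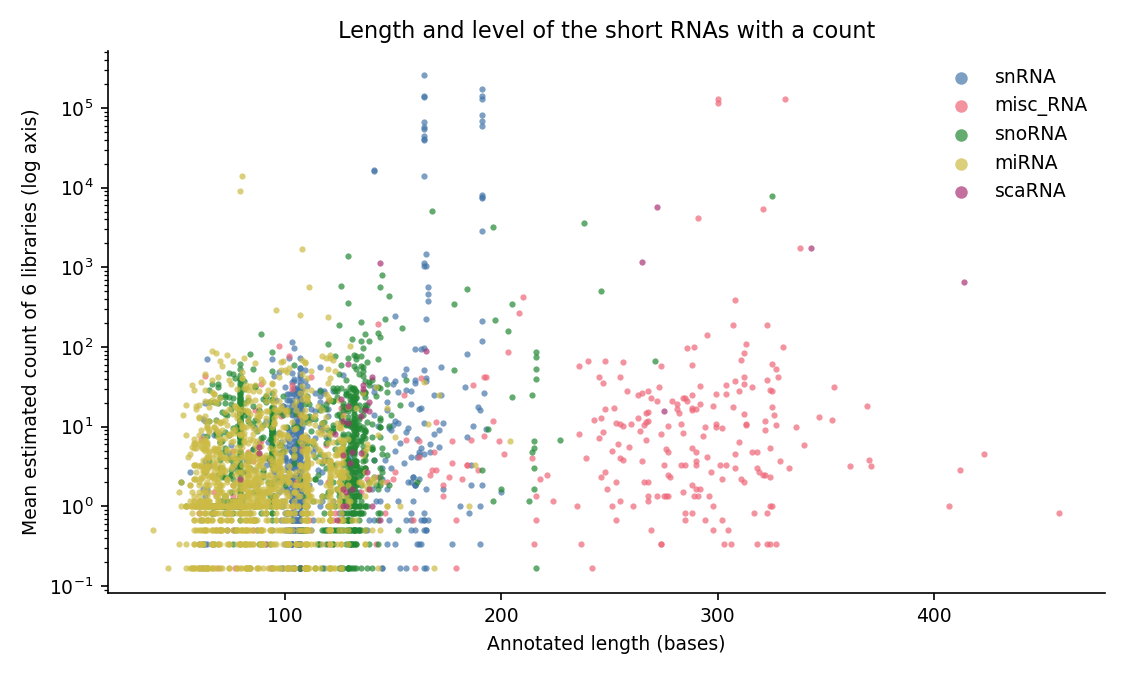
Annotated length (bases) against the mean estimated count of the 6 libraries (log axis) for the 3350 short RNAs with a count, coloured by type. The highest snRNAs form columns at 164 and 191 bases, and the highest misc_RNA points lie at 300 and 331 bases.

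Members inside a gene of several exons, or with a gene on the opposite strand only, reached 10 counts more often than members with none. 2143 members (38.3%) lay inside an annotated gene of several exons on the same strand, and 21.2% of these had a mean of at least 10 counts. Of the 2427 members with no annotated gene over them, 6.10% did. Another 982 members had a gene on the opposite strand only, of which 24.3% reached 10 counts. The remaining 46 overlapped a gene on the same strand in another way, and 4.35% of these did. snoRNAs inside a gene reached 10 counts in 37.4% of cases and snoRNAs outside any gene in 7.36%. For members inside a gene, reads of the short RNA and of the host's unspliced RNA cannot be told apart in these counts.

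The most counted short RNA was the snRNA Gm22513 (164 bases, chr12:54696782-54696945, plus strand), with 246767, 240618 and 308898 counts in control against 185442, 266122 and 289658 in PS_high. Its mean of 21272 FPKM compares with 5354 for Rn7sk and 5838 for Rn7s2, the most counted misc_RNA members. Gm22513 did not differ beyond the spread (log2 0.06, SE 0.26, edgeR adjusted p = 1). Gm22317 (125451, 138921 and 148765 in control against 103114, 123228 and 207420 in PS_high) and Gm26444 (126782, 134795 and 188889 against 123148, 101427 and 146791), of the same length, overlapped between the groups too. All 3 lie within chr12:54696782-54738622, where 7 well-counted snRNAs of this length are annotated.

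The symbols of these snRNAs name no family, so they are grouped here by length; the groups were chosen after the values were seen and are described without a test. Of 1378 snRNAs, 58 had the 164 to 166 bases of the named U1 genes Rnu1a1, Rnu1b1 and Rnu1b6, and 14 had the 191 bases of Rnu2-10, a U2 gene. The U1 length held 54.3% of all snRNA counts and the U2 length 43.3%. Only a small part of the first came from genes with a U1 symbol: Rnu1a1 had 519, 1452 and 600 counts in control against 1443, 2078 and 761 in PS_high. Near-identical copies can share reads, so the value of a single copy is uncertain.

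The transcripts of U1 length summed to 13374, 11322 and 16576 CPM in control against 9981, 16374 and 15975 in PS_high, with means of 13757 ± 2648 and 14110 ± 3581 (SD, n = 3). PS_high 1 was the lowest of the 6 libraries and the groups overlapped. The highest library exceeded the lowest 1.66 times in the sum. Among the 14 copies with a mean of at least 1000 counts this ratio was 1.51 to 859, above that of the sum for 13 copies but above 10 for only 3. The median coefficient of variation of these copies in control was 21.2%, close to the 19.2% of the sum, and in PS_high it was 42.8% against 25.4%.

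The transcripts of U2 length were higher in PS_high. They summed to 8484, 9084 and 9983 CPM in control against 13948, 12675 and 12584 in PS_high, a ratio of means of 1.42, and the groups did not overlap. The 10 copies with a mean of at least 1000 counts lie mostly in 2 places: 4 in chr1:72226240-72255198 with 45.9% of the counts of this length, and 5 in chr11:101604850-101658428, near Rnu2-10, with 52.99%. Of the 10, 6 were above 0 and 4 below 0 in log2 fold change. Their median coefficient of variation was 32.4% in control and 25.4% in PS_high, against 8.21% and 5.84% for the sum. The highest library exceeded the lowest 1.64 times in the sum, and 1.68 to 87.0 times in the 10 copies. Rnu2-10 itself had 83634, 35740 and 116395 counts in control against 37874, 68032 and 75474 in PS_high (log2 -0.20, SE 0.52, edgeR adjusted p = 1), with control 2 and PS_high 1 lowest.

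Gm24950 (chr11:101641748-101641938) had the most even difference of this length. It had 110067, 93896 and 110124 counts in control against 191878, 167643 and 180828 in PS_high, so each PS_high library was above each control library. The log2 fold change was 0.92 (SE 0.12; edgeR adjusted p = 0.349), which did not pass the adjusted threshold of 0.05. DESeq2 called it (log2 0.93, adjusted p = 1.4e-16). Gm24497 (chr1:72244213-72244403) had 97079, 103381 and 103994 counts in control against 194649, 106709 and 163929 in PS_high (log2 0.73, edgeR adjusted p = 1, DESeq2 adjusted p = 0.0241), with PS_high 2 close to control. Gm25939 on the same stretch of chromosome 1 had 129579, 140351 and 158255 against 270325, 152479 and 200783, so its counts overlapped between the groups and its CPM did not. Among the 69333 transcripts tested, 8.26% had groups that did not overlap in CPM.

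Transcripts assembled from the reads lie over these same copies, on either strand, and took counts in some libraries and not in others. On the U2 length they held 6847, 238758 and 56565 counts in control against 316718, 125 and 230991 in PS_high. The assembled transcript that spans chromosome 1 copies (MSTRG.1046.1) had 91, 164074 and 81 counts in control against 275769, 103 and 214122 in PS_high. It lies on the minus strand, opposite to those copies, which lie on the plus strand. With these counts added, the U2 length came to 8589, 12944 and 10840 CPM in control against 18939, 12677 and 16345 in PS_high, and the groups overlapped because control 2 exceeded PS_high 2. That overlap needs the counts of both MSTRG.1046.1 and MSTRG.7137.3. MSTRG.1046.1, the opposite-strand transcript, was at 2653 CPM in control 2 and 1.93 CPM in PS_high 2. MSTRG.7137.3, on the plus strand over chromosome 11 copies, was at 1208 CPM in control 2 and 0 CPM in PS_high 2. With all the assembled transcripts added, the ratio of means was 1.48. On the U1 length the assembled transcripts held 12269, 231836 and 9348 counts in control against 26172, 39762 and 122127 in PS_high, and the sums still overlapped.

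**Figure D3:**
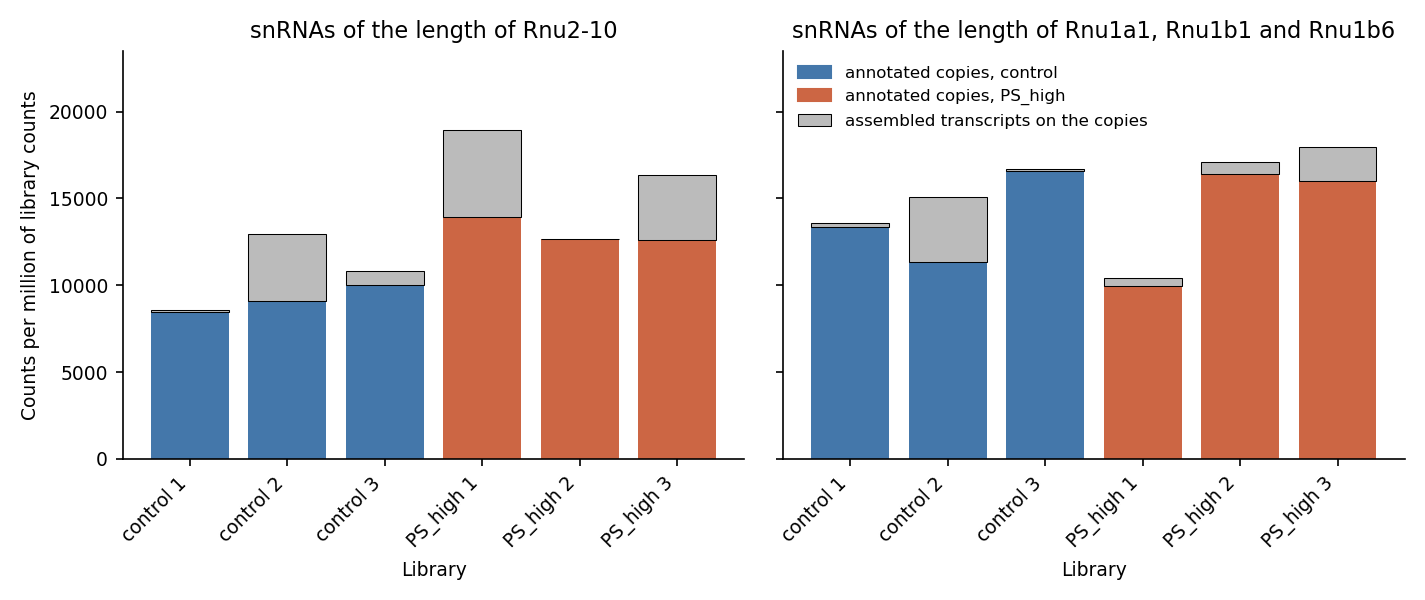
Summed CPM in each library for annotated snRNAs of 191 bases (left) and of 164 to 166 bases (right), in blue for control and orange for PS_high. The assembled transcripts over the same copies, on either strand, are stacked in grey. At 191 bases the coloured bars reach 8484 to 9983 in control and 12584 to 13948 in PS_high, and with the grey part control 2 (12944) is above PS_high 2 (12677).

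The snRNAs of the lengths of Rnu6 and Rnu5g were low. The 408 snRNAs of 107 bases, the length of the U6 gene Rnu6, summed to 24.9, 24.9 and 23.9 CPM in control against 27.7, 25.9 and 21.1 in PS_high. The 12 of 116 bases, the length of the U5 gene Rnu5g, summed to 1.44, 3.06 and 2.06 CPM against 2.19, 2.70 and 2.46. The 8 of 141 bases were higher, at 451, 488 and 594 CPM in control against 430, 654 and 621 in PS_high, nearly all from Gm24265 and Gm24407 on chromosome 5. None of these 3 sums separated the groups.

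Rnu12, the U12 snRNA of the minor spliceosome, had 150, 185 and 225 counts in control against 338, 315 and 245 in PS_high. Every PS_high library was above every control library, with a log2 fold change of 0.82 (SE 0.30; edgeR adjusted p = 1). Rnu11, its partner U11, had 0 counts in all 6 libraries. Taken as a read count, 0 allows up to 3 counts in each, but these are estimates, so this is no firm bound. Rnu7, the snRNA that processes histone messenger RNA ends, had 0 or 1 count in each library. Rnu5g (40, 70 and 67 against 61, 51 and 44) and Rnu1b1 (32, 42 and 35 against 29, 53 and 54) overlapped between the groups.

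Rn7sk, the 7SK gene (331 bases, chr9:78175303-78175633), was even across the libraries. It had 111039, 126652 and 142513 counts in control against 130737, 137582 and 131604 in PS_high, or 1970 ± 238 and 2261 ± 279 CPM (SD, n = 3). The log2 fold change was 0.22 (SE 0.17, edgeR adjusted p = 1). Together with the 7SL genes Rn7sk made up nearly the whole misc_RNA class. Without Rn7sk, Rn7s1, Rn7s2 and Rn7s6 the misc_RNA share of library counts was 0.0364%, 0.0183% and 0.0186% in control against 0.0141%, 0.0236% and 0.0121% in PS_high. The 5 most counted members, with 98.2% of the misc_RNA counts, also include Gm26315 (321 bases, in Celf2). Gm26315 had 15509, 3498 and 5312 counts in control against 3366, 3702 and 1313 in PS_high, which overlapped.

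The 7SL gene Rn7s1 (300 bases, chr12:69159295-69159594) had 147590, 104246 and 178097 counts in control against 97911, 81323 and 92655 in PS_high, with no overlap (log2 -0.52, SE 0.21; edgeR adjusted p = 1). Rn7s2 (300 bases, chr12:69361182-69361481) had 150046, 101599 and 158853 against 108228, 102914 and 157372, which overlapped (log2 -0.01, SE 0.26, edgeR adjusted p = 1). Each has a short miRNA-type annotation over its end on the same strand. Gm47295, on Rn7s1, had 1 count in each control library and 1, 25811 and 28695 in PS_high. Gm47299, on Rn7s2, had 1, 30365 and 24760 counts in control against 572, 1 and 27914 in PS_high.

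Both short annotations held 1 count in some libraries and at least 24760 in others, and the 7SL gene under them did not vary with them in a fixed way. Rn7s1 was at 1543, 1524 and 1509 CPM in PS_high 1, 2 and 3, with Gm47295 at 0.0158, 484 and 467 CPM. Rn7s2 was highest (2562 CPM) in PS_high 3, where Gm47299 was at 454 CPM, and lowest (1643 CPM) in control 2, where it was at 491 CPM. Summed over the pair, Rn7s1 with Gm47295 had 147591, 104247 and 178098 counts in control against 97912, 107134 and 121350 in PS_high, which overlapped (log2 -0.25, SE 0.24, edgeR adjusted p = 1). Rn7s2 with Gm47299 had 150047, 131964 and 183613 against 108800, 102915 and 185286 (log2 -0.09, SE 0.28, edgeR adjusted p = 1). Rn7s6, a further 7SL gene, had 20315 counts in PS_high 2 and 718 to 1122 in the other 5 libraries. The whole 7SL family by symbol came to 4347 ± 912 CPM in control and 3728 ± 420 in PS_high (SD, n = 3; exact permutation p = 0.3).

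Scarna10 (325 bases, chr6:125186359-125186683, in Ncapd2) traded counts with another annotation. It had 12139, 10588 and 13055 counts in control against 10252, 865 and 781 in PS_high, so PS_high 2 and 3 were far below the other 4 libraries. Gm28967, a sense-intronic annotation at the same place, had 2001, 1685 and 2239 counts in control against 1568, 12185 and 11272 in PS_high. Their sum was 14140, 12273 and 15294 in control against 11820, 13050 and 12053 in PS_high (log2 -0.02, SE 0.18, edgeR adjusted p = 1), so where Scarna10 was low Gm28967 was high. The Scarna family by symbol, which Scarna10 leads, was 217 ± 13 CPM in control and 91.8 ± 73.9 in PS_high (SD, n = 3; exact permutation p = 0.1; adjusted p = 0.50 over 10 families).

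**Figure D4:**
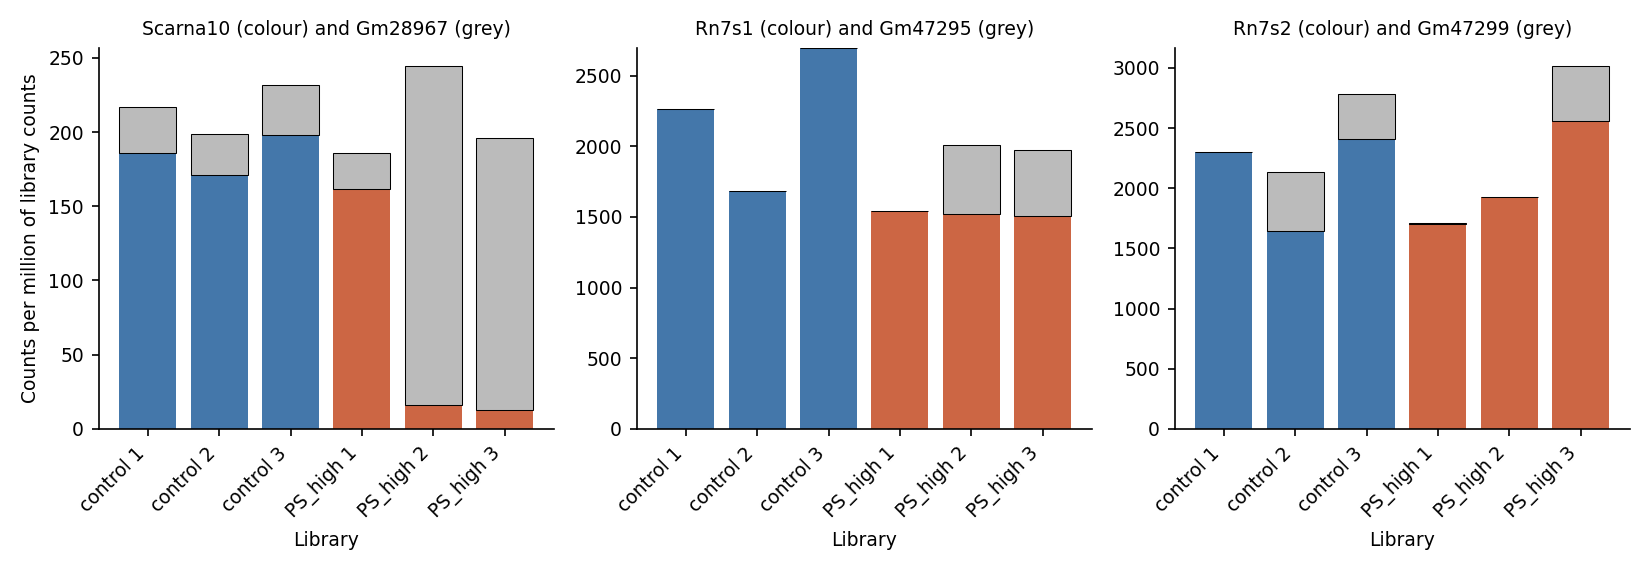
CPM in each library for 3 pairs of overlapping annotations, the named short RNA in blue (control) or orange (PS_high) and the annotation over it stacked in grey. Scarna10 drops to 16.2 and 12.7 in PS_high 2 and 3 while its sum with Gm28967 stays between 186 and 245 in all 6 libraries.

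The remaining abundant scaRNAs and snoRNAs lay mostly inside other genes. Of the 33 with a mean of at least 100 counts, 28 lay inside a gene of several exons on the same strand, 7 of them in Eif4a1, Eif4a2 or Eif4g2, genes of translation initiation factors. Gm25395 (scaRNA, 272 bases, in the autophagy gene Atg16l1) had 6655, 5469 and 6526 counts in control against 3642, 5461 and 6164 in PS_high. Gm23262 (snoRNA, 168 bases, in Eif4g2) had 4787, 5359 and 5768 against 3106, 4763 and 6341, and Gm26447 (in Eif4a2) was even, with 1233, 1493 and 1510 against 1295, 1356 and 1354. In edgeR, none of the 494 tested snoRNAs and scaRNAs passed the adjusted threshold (0.00433% of all transcripts did), and 4 (0.810%) had an unadjusted p under 0.05, against 3.58% of all transcripts.

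By family, C/D box genes (96 named Snord) summed to 104, 105 and 110 CPM in control against 59.9, 126 and 132 in PS_high. H/ACA box genes (40 named Snora) summed to 81.2, 79.9 and 87.3 against 50.2, 97.3 and 96.5. In both families PS_high 1 was lowest, PS_high 2 and 3 were highest, and the means were nearly equal (106 ± 3 and 106 ± 40; 82.8 ± 4.0 and 81.3 ± 26.9; SD, n = 3). The 17 brain-enriched Snord116 genes of the imprinted Prader-Willi region summed to 4.02, 3.14 and 3.82 CPM against 3.86, 3.94 and 3.26. Their host transcript Snhg14 was at 2428, 2527 and 2213 CPM against 2540, 2311 and 2216. Snord116l12 was the most counted of them, with 88, 69 and 95 against 115, 90 and 67. U3 genes (Rnu3), which process the ribosomal RNA precursor, came to 4.41 ± 0.65 and 4.33 ± 0.83 CPM.

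Many abundant short RNAs were lowest in PS_high 1. Of the 92 members with a mean of at least 100 counts, 36 had their lowest CPM there, against 6 to 21 in each other library, and PS_high 2 was the highest library for 33. Control 1 came next, lowest for 21. Its median ratio to the other libraries was 0.860, close to the 0.842 of PS_high 1. Of the 92, 34 were snRNAs, among which near-identical copies can share reads. Snord17 (C/D box, 238 bases, in Snx5) had 3987, 3619 and 4479 counts in control against 1100, 3529 and 4993 in PS_high. Snora74a (H/ACA box) had 3286, 3137 and 3517 against 1482, 3466 and 4090. Vaultrc5, a vault RNA, had 200, 159 and 239 against 112, 229 and 224, and the Y RNA Rny3 had 78, 65 and 111 against 31, 115 and 63. The RNAs of RNase P (Rpph1) and RNase MRP (Rmrp), annotated as ribozymes and not among the members, were also lowest in PS_high 1 (3610 and 6872 counts against 7787 to 10186 and 10277 to 12241 elsewhere).

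The U2 length went the other way and was highest in PS_high 1. Its ratio to the U1 length was 0.634, 0.802 and 0.602 in control against 1.40, 0.774 and 0.788 in PS_high. PS_high 1 also had the lowest summed markers of oligodendrocytes (152 FPKM against 180 to 214 elsewhere), microglia (11.8 against 14.96 to 18.6) and blood (72.5 against 109 to 319). The part of this library's composition in its short RNA levels was not tested. Without PS_high 1, the U2 length remained higher in PS_high (log2 ratio of the sums 0.46, against 0.51 with all 6 libraries).

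**Figure D5:**
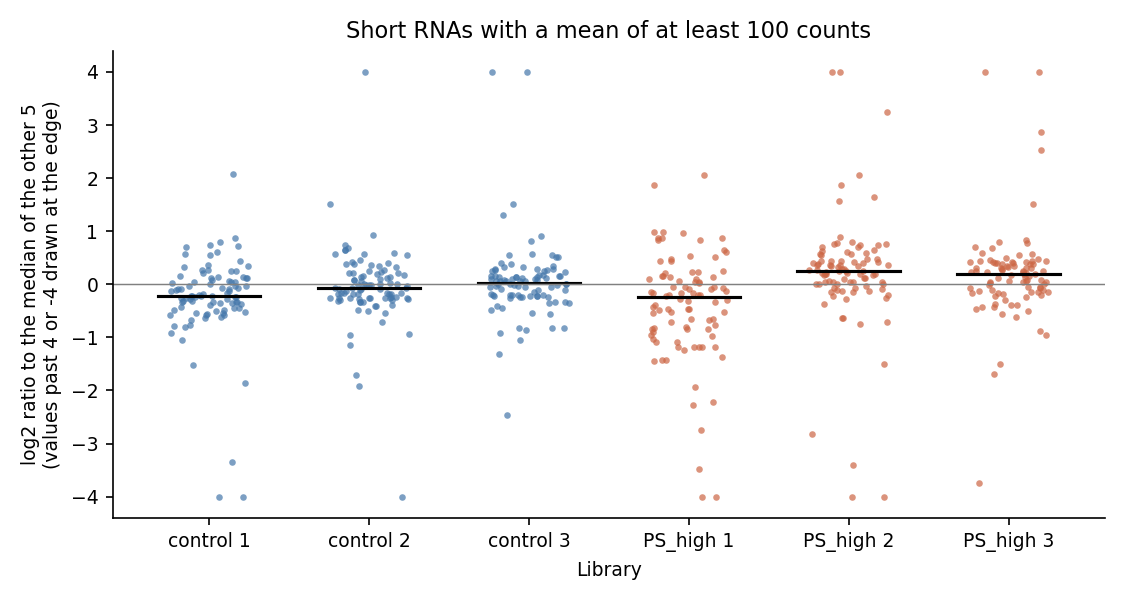
For each library, the log2 ratio of CPM to the median of the other 5 libraries for the 92 short RNAs with a mean of at least 100 counts; points are transcripts (blue control, orange PS_high) and black lines medians, and values under 3 counts are raised to 3 counts. PS_high 1 has the lowest median ratio (0.842 before the logarithm), control 1 is next (0.860), and PS_high 2 has the highest (1.19).

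Counts of miRNA-type members came from few annotations. Gm47299, Gm47295 and Gm26377, a miRNA-type annotation inside the elongation factor gene Eef1a1, together held 73.3% of them. Without Gm47295 and Gm47299 the miRNA share of library counts was 0.0180%, 0.0191% and 0.0170% in control against 0.0165%, 0.0165% and 0.0168% in PS_high. Genes with a Mir symbol summed to 104, 118 and 103 CPM in control against 94.1, 95.3 and 97.4 in PS_high, with no overlap (109 ± 9 and 95.6 ± 1.7; SD, n = 3; exact permutation p = 0.1, adjusted p = 0.50 over 10 families).

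Mir8114 had 669, 536 and 858 counts in control against 664, 1 and 649 in PS_high, with PS_high 2 at 1 while the main transcript of Glul had 56474 counts there. Mir341 had 306, 382 and 228 counts against 341, 245 and 261, and Mir1188 had 261, 296 and 209 against 220, 225 and 226. Both lie in Rian, a long non-coding RNA of the imprinted Dlk1-Dio3 region, whose 4 miRNA members summed to 8.94, 11.4 and 6.70 CPM in control against 8.93, 9.20 and 8.04 in PS_high. Rian itself was at 1204, 1184 and 1251 CPM against 1107, 1095 and 1124. The 14 miRNA members in Mirg summed to 3.63, 3.77 and 5.65 CPM against 2.02, 4.48 and 5.41, with PS_high 1 lowest. The 119 in an intron cluster of Sfmbt2 summed to 5.92, 7.39 and 5.89 CPM in control against 4.40, 5.01 and 5.75 in PS_high; these did not overlap, and Sfmbt2 itself was at 5.43, 7.75 and 5.70 CPM against 5.26, 4.67 and 6.20, which did.

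Neuronal microRNA genes were at or near 0. Mir124a-1 and Mir128-1 had 1 count in each of the 6 libraries, Mir9-1 had 0, Mir9-2 had 1 and Mir9-3 had 1 to 7. Mir132 had 1 count in control 2 and 0 elsewhere, and Mir212, in the same host, had 5 counts there and 0 elsewhere. Mir155 and Mir146, microRNAs of the immune response, had 0 in all libraries, and Mir21a had 1 to 5. The 10 let-7 genes together reached 0.407 to 0.600 CPM. Given the library protocol, these values describe hairpin and host fragments and say nothing on mature microRNA levels.

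In the edgeR quasi-likelihood fit over 69333 transcripts, 1360 members were tested and 0 passed an adjusted p under 0.05, where 0.00433% of all transcripts passed (3). At an unadjusted p under 0.05 there were 34 members (2.50%) against 3.58% of all transcripts, 17 of them higher (1.25%, against 1.85%) and 17 lower (1.25%, against 1.73%). Their median log2 fold change was -0.01, as it was over all transcripts tested. By type, 12 of 321 snRNAs, 14 of 423 miRNA, 4 of 472 snoRNAs, 4 of 122 misc_RNA and 0 of 22 scaRNAs had an unadjusted p under 0.05. Groups did not overlap for 58 members higher in PS_high (4.26%, against 3.54% of all transcripts) and 64 lower (4.71%, against 4.72%). These shares were close to the background.

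DESeq2 called 6 members, 5 higher and 1 lower, or 0.441% of the 1360 members tested, against 1.41% of all transcripts tested. They were Gm24950, Gm24497, Gm22973, Gm25177, Gm47295 and, lower, Gm23316; Gm22973 and Gm25177 are named after their values were seen. Gm25177 (117 bases, in Tbc1d5) had 2 counts in each control library and 16, 16 and 20 in PS_high, close to the count floor (edgeR adjusted p = 0.396). Gm22973 (191 bases, chromosome 12) had 67, 98 and 96 against 197, 133 and 130. Gm23316 had 32, 15 and 31 counts in control against 5, 7 and 5 in PS_high (log2 -2.01, SE 0.49, edgeR adjusted p = 1). Without PS_high 1, edgeR called Gm47295, the annotation whose sum with Rn7s1 overlapped between the groups.

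Among other members with a mean of at least 10 counts and groups apart, those with the smallest p were low in count. Mir365-1 had 9, 26 and 29 counts in control and 4 in each PS_high library (log2 -2.24, SE 0.60, edgeR adjusted p = 1). Gm23413 (miRNA type, in Trap1) had 12, 11 and 10 against 46, 32 and 17, and Gm26411 (snRNA, in Fbxw8) had 6, 4 and 7 against 19, 20 and 10. Lower in PS_high were the snRNAs Gm22345 (36, 52 and 48 against 21, 17 and 25) and Gm24277 (24, 17 and 12 against 6, 6 and 4) and the misc_RNA Gm25706 (51, 38 and 60 against 32, 17 and 14). None passed after adjustment.

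The protein partners, makers and host genes of these RNAs were read from a gene-level edgeR fit over 20272 genes, in 11 lists. Of 87 genes tested 0 passed in either direction, where 0.0247% of all genes did (5). At an unadjusted p under 0.05 there were 3 (3.45% against 2.73% of all genes), named here after their values were seen: Gemin4 of the SMN complex, which loads Sm proteins on snRNAs; Prpf4 of the U4/U6 particle; and the host gene Mirg. Gemin4 was at 10.4, 0.0485 and 0.182 CPM in control against 0.126, 0.0750 and 0.277 in PS_high, so control 1 alone was high. Prpf4 was at 6.61, 12.4 and 18.7 CPM against 7.47, 6.43 and 5.76, which overlapped. Mirg was at 113.9, 154 and 135 CPM against 58.7, 113 and 96.7, with no overlap (log2 -0.57, SE 0.22, edgeR adjusted p = 1).

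Of all 20272 genes tested, 9835 were above 0 in log2 fold change. In the 7SK particle, 5 of 7 genes were above 0 with 0 passing, among them Larp7, which binds the 7SK end (0.20), and Mepce, its capping enzyme (0.12). Hexim1 (0.61) was at 0 CPM in control 2 and at 36.8 to 41.9 CPM in the other libraries. In the signal recognition particle 4 of 8 were above 0, with Srp54a at 0.28, Srp9 at -0.21 and Srp14 at -0.24. The C/D core had Fbl, the methyltransferase, at 0.02 and Nop56 at 0.03, and the H/ACA core had Dkc1, the pseudouridine synthase, at 0.15. Of 8 Sm protein genes 4 were above 0, with Snrpn, the neuronal Sm gene, at 238, 234 and 403 CPM in control against 466, 290 and 527 in PS_high (log2 0.59, SE 0.28, edgeR adjusted p = 1). Spliceosomal snRNP protein genes had 10 of 15 above 0, including Snrpa of U1 (0.00304), and microRNA processing genes had 4 of 9, with Drosha at 0.08 and Dicer1 at 0.04. Snapc1, a subunit of the snRNA promoter complex, was at 63.9, 27.9 and 36.7 CPM against 36.9, 62.9 and 148 (log2 0.92, SE 0.51, edgeR adjusted p = 1), with PS_high 3 highest.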

How the data were processed

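RNA of 6 prefrontal cortex samples (3 control, 3 PS_high) was measured in 1 deposited table of linear transcripts; a table of circular RNAs was not used. The authors deposited an estimated count and an FPKM per transcript. HISAT2, StringTie and TopHat appear in the submitters' processing notes; for their versions, roles and the genome build, the sources used here give nothing. In all 6 libraries 100% of nonzero deposited counts equalled FPKM times length over 1 constant, rounded up to a whole number (tolerance 0.01), and rows with 0 counts carried 0.0001 FPKM, set to 0 here. Counts are therefore model estimates, and p-values treat them as reads.

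Transcripts with a mean of at least 0.5 FPKM were tested with edgeR 4.0.16 (R 4.3.3; quasi-likelihood, TMM factors, Benjamini-Hochberg over 69333 transcripts), two-sided, after the code was tested on simulated data. Genes were summed over isoforms that share exons. Shares, detection and families used exact permutation tests, which cannot go below 0.1 here. DESeq2 1.42.0, limma 3.58.1, other filters, scalings, the replicate number as a block and each library left out were alternatives. Positions use the table's annotated transcripts. Library totals were 53344395 to 66004386 counts. No pair of libraries was identical: at most 0.287% of counts over 100 were equal.

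The members, gene lists, markers and length groups were chosen with earlier results of these data known. Names were drawn from the 5 most counted members of each type, fixed names and up to 3 genes of each list. Not described are the scaRNAs Gm22009, Scarna6, Gm22442 and Scarna2 and some fixed names, among them Terc and Rny1. The 5 higher and 5 lower members with the smallest p among those with a mean of at least 10 counts and groups apart are named too. Others are marked as seen first, among them Scarna10 pairs, Rn7s6, Rnu1a1, Mir1188, Gm24265 and Gm24407.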

Additional observations from a re-analysis of the deposited data

How the results depend on the processing

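No short RNA passed in edgeR under another filter, another scaling, annotated transcripts alone or overlapping annotations summed into loci (0 of 1357 loci). DESeq2 called 5 higher and 1 lower, and leaving out 1 library gave 0 to 1 higher (1 without PS_high 1) and 0 lower. At an unadjusted p under 0.05 the 34 members became 17 with a mean of at least 10 counts, 60 in DESeq2, and 67 and 72 in limma on log2 FPKM with 0.1 and 1 added. With the replicate number as a block edgeR called 0, with 16 at an unadjusted p under 0.05. Same-numbered samples deviated together by 0.230, 0.118 and 0.0655 (correlation over 20272 genes), not all above 0.1, though each sample correlated best with its own number; the numbers were not taken as pairs.

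The log2 ratio of the snoRNA share moved from -0.31 to -0.011 without Scarna10 and to -0.24 as a share of summed FPKM. The difference in detected members (-124) was -75.7 at 10 counts and -84 after thinning; for miRNA (-73) it was -29.7 and -46.7, and for snoRNA (-30) it was -14.3 after thinning. The log2 ratio of the Scarna family (-1.24) ran from -2.15 to -0.94 with a library left out, lowest without PS_high 1. With a library left out, 13 values without a call changed sign. These were the log2 fold changes of Gm22513 (-0.076 to 0.27), Rnu2-10 (-0.54 to 0.18) and Rn7s2 (-0.22 to 0.12); the log2 ratios of the miRNA (-0.19 to 0.89, below 0 without PS_high 3), misc_RNA (-0.20 to 0.011) and scaRNA (-0.22 to 0.10) shares, of the U1 length (-0.086 to 0.23) and of the Snord (-0.20 to 0.27), Snora (-0.17 to 0.23), Snord116 (-0.088 to 0.092), U3 (-0.14 to 0.12) and Y RNA (-0.57 to 0.36) sums; and the difference in detected snRNAs (-18.3 to 0.67). The cause was not tested. Depth limits the low counts: 3 counts are 0.0455 to 0.0562 CPM, and counts of 1 can be less than a read.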
